A study of Mus musculus with 24 samples.

Results

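Chemokine receptors set where a dendritic cell goes. These 7-transmembrane receptors bind small secreted chemokines and signal through inhibitory G proteins; inflammatory receptors draw immature cells to injured tissue, and maturing dendritic cells are known to lower them while the lymph node homing receptor Ccr7 rises. Atypical receptors bind ligand without that G protein signal and scavenge it or present it to other cells. The 8 receptors described here are Ccr1, Ccr2, Ccr3, Cx3cr1, Cxcr2, Cxcr4 and the atypical receptors Ccrl2 and Ackr3. They were taken by symbol from the 55291 gene symbols of the deposited expression table, and all 8 were found.

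The libraries were made from dendritic cells grown out of mouse bone marrow for 7 days with GM-CSF at 20 ng/ml. Cells of 3 inbred strains were used: PWD, a wild-derived Mus musculus musculus strain, and the strains labelled C57 and B6, which the sources used here do not tell apart further. Each strain gave 4 libraries of cells treated for 6 hours with lipopolysaccharide (LPS) of E. coli 0111:B4 at 10 ng/ml and 4 libraries of untreated cells, so that there were 6 groups and 24 libraries. No age or transgene was given, and 4 mice per strain were cultured separately; the same number in both treatments of a strain was taken as the same mouse. Cultures of this kind are mixtures of dendritic cells, macrophages and granulocytes, and in such bulk samples fewer cells of a type and less RNA per cell cannot be told apart.

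Values are TPM, transcript abundances scaled by transcript length, so levels of different receptors can be compared; the values of each library have a fixed sum and its sequencing depth is unknown. Structural RNAs such as 7SL and 7SK took 28.8% to 44.2% of a library, and between 10731 and 12663 genes reached 1 TPM. Libraries numbered 1 and 2 held Xist at 0 to 0.0901 TPM, and those numbered 3 and 4 at 42.0 to 104 TPM, so the numbers separate male from female material by this transcript although the labels give no sex. The untreated PWD libraries differed along the same split: structural RNA was 41.9% and 40.3% in numbers 1 and 2 and 29.3% and 28.8% in numbers 3 and 4. C57 LPS libraries did so too, at 39.9% and 41.2% in numbers 1 and 2 and 31.6% and 33.4% in numbers 3 and 4. Untreated C57 libraries went slightly the other way, at 33.8% and 34.1% in numbers 1 and 2 and 35.8% and 35.1% in numbers 3 and 4. Conventional dendritic cell markers summed to 866 to 2067 TPM in the group means, and lymphocyte markers to 0.314 to 6.94 TPM.

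Each difference below is on the log2(TPM + 1) scale with its standard error (SE), from a limma model over all 24 libraries and 13246 genes that reached 1 TPM in at least 4 libraries. A difference was called when its Benjamini-Hochberg adjusted p, taken over all tested genes, was under 0.05. Ccr1, Ccr2, Ccr3, Ccrl2, Cxcr2 and Cxcr4 passed the filter on low values; Ccr3 passed through its PWD libraries together with 1 library of C57 mouse 4 in each treatment. Cx3cr1 and Ackr3 did not pass, and their tests come from a fit with no filter.

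In mm10, 5 of the receptor genes lie on chromosome 9 and 3 on chromosome 1, all protein-coding. Ccr1 (chr9:123962124-123968692, minus strand), Ccr3 (chr9:124021972-124031689, plus strand) and Ccr2 (chr9:124101950-124113557, plus strand) lie close together, whereas Ccrl2 (chr9:111054486-111057519, minus strand) and Cx3cr1 (chr9:119901616-120069879, minus strand) lie apart from them. Cxcr2 (chr1:74153989-74161246, plus strand), Ackr3 (chr1:90203980-90216751, plus strand) and Cxcr4 (chr1:128588199-128592293, minus strand) lie on chromosome 1. The annotated span of Cx3cr1 holds 9 other genes; the other 7 receptors overlap no annotated gene. Of the 50-base words in their annotated transcripts, 1.91% of those of Ccr2 and 4.01% of those of Cxcr2 also occur in other genes, and reads of those stretches are uncertain.

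Promoters of the receptors are printed where a binding motif of an LPS-activated factor was found, because one of these genes rose with LPS and the others did not. NF-kB is the transcription factor that the LPS receptor activates, and its 10-base consensus was searched on both strands from 250 bases before to 50 bases after each RefSeq start site (GRCm38.p6). It was present in 8.46% of 32841 promoters. The AP-1 site TGANTCA was present in 7.81% and the interferon-stimulated response element in 3.44%, each searched on both strands. Capitals mark the NF-kB matches and, in Ccr3, the AP-1 match as well, which lies downstream of the NF-kB match without overlap. The windows are chr9:111057469-111057768 for the first Ccrl2 start site and chr9:123968643-123968942 for Ccr1, both minus strand, and chr9:124021721-124022020, plus strand, for Ccr3.
Ccrl2: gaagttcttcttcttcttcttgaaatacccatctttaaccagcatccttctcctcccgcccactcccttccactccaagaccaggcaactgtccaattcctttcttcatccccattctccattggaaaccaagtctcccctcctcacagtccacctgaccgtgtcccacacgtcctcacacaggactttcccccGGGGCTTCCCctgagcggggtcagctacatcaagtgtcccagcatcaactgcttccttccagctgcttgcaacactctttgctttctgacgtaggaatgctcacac
Ccr1: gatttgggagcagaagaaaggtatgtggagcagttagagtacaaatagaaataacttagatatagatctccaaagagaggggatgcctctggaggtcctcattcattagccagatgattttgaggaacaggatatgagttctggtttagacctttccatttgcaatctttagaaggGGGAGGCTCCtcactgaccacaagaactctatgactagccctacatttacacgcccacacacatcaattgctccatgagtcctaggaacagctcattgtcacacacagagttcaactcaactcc
Ccr3: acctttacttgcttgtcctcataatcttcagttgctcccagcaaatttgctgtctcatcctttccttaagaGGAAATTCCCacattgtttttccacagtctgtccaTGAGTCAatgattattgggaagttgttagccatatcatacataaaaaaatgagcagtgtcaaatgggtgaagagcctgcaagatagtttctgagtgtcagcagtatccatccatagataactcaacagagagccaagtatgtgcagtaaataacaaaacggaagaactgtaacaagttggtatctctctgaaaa

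The NF-kB match starts at position -56 in Ccrl2, -74 in Ccr1 and -179 in Ccr3, counted from the start site. Ccrl2 has 3 RefSeq start sites, and the other 2 windows hold no match. The windows of Ccr2, Cx3cr1, Cxcr2, Cxcr4 and Ackr3 hold none of the 3 motifs. A match describes letters in a window and is not evidence of binding.

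LPS lowered Ccr1, Ccr2, Cxcr2 and Cxcr4 and raised Ccrl2 in all 3 strains. Among the 6 tested receptors, 1 rose, 4 fell and 1 (Ccr3) was not called in each strain. In PWD cells 11.1% of all tested genes were called higher and 52.4% lower with LPS; the shares were 10.4% and 52.2% in C57 cells and 11.9% and 59.7% in B6 cells. A fall was therefore the common outcome, and the median change of all genes was -0.32 in PWD, -0.32 in C57 and -0.43 in B6. The median of the 6 receptors was -1.59 in PWD, -0.73 in C57 and -1.25 in B6. When libraries were rescaled by median-of-ratios factors, which centre the genes, 50.9%, 48.5% and 50.6% of the called genes were higher in the 3 strains in that order, against 17.4%, 16.6% and 16.6% with TPM as deposited. The receptors' calls then stood except that of Ccr1 in C57 cells.

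**Figure D1:**
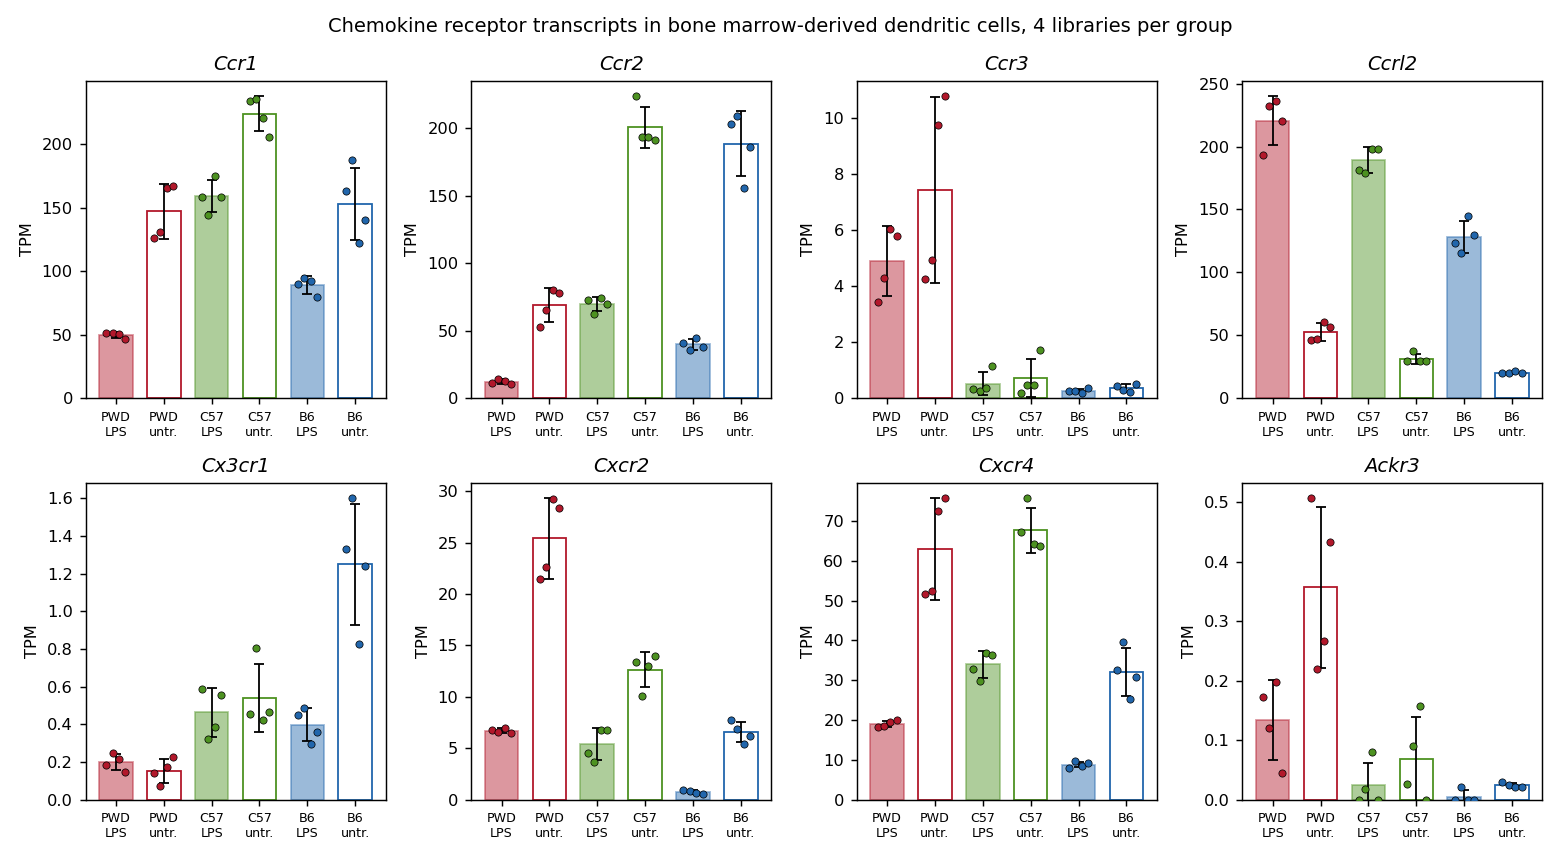
TPM of each receptor (vertical axis, linear from 0) in the 6 groups, with LPS filled and untreated open; bars are means, whiskers SD over 4 libraries and points single libraries. Ccrl2 was higher and Ccr1, Ccr2, Cxcr2 and Cxcr4 lower in the LPS libraries of every strain, and Ccr3 exceeded 2 TPM in PWD libraries alone.

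Ccrl2, an atypical receptor that binds chemerin and holds it at the cell surface, was the receptor that rose. In PWD cells Ccrl2 stood at 193, 232, 236 and 221 TPM with LPS, against 45.8, 46.9, 60.7 and 56.1 TPM untreated. In C57 cells Ccrl2 stood at 182, 179, 198 and 198 TPM with LPS, against 29.2, 37.0, 29.1 and 29.5 TPM untreated. In B6 cells Ccrl2 stood at 123, 115, 145 and 130 TPM with LPS, against 19.6, 19.7, 21.2 and 19.7 TPM untreated. All LPS libraries were above all untreated libraries, across strains as well as within them. The ratio of group means was 4.21 in PWD, 6.07 in C57 and 6.38 in B6. The log2 differences were 2.06 ± 0.0979 in PWD (SE; adjusted p = 1.29e-15), 2.57 in C57 (adjusted p = 3.84e-17) and 2.61 in B6 (adjusted p = 1.21e-17), n = 4 libraries per group.

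Ccr2, the receptor for Ccl2, Ccl7 and Ccl12 that brings monocytes out of the marrow, fell in all 3 strains. In PWD cells Ccr2 stood at 11.1, 14.3, 12.7 and 10.8 TPM with LPS, against 52.5, 65.1, 79.8 and 77.9 TPM untreated. In C57 cells Ccr2 stood at 72.9, 62.7, 74.1 and 69.6 TPM with LPS, against 224, 194, 194 and 192 TPM untreated. In B6 cells Ccr2 stood at 40.9, 35.7, 44.8 and 37.7 TPM with LPS, against 204, 209, 156 and 186 TPM untreated. The groups did not overlap within any strain. The LPS mean was 0.178 of the untreated mean in PWD, 0.348 in C57 and 0.211 in B6. The log2 differences for Ccr2 were -2.39 ± 0.118 in PWD (SE; adjusted p = 2.78e-15), -1.51 in C57 (adjusted p = 6.06e-11) and -2.22 in B6 (adjusted p = 1.40e-14).

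Ccr1, which binds Ccl3, Ccl5, Ccl6 and Ccl9 and is carried by monocytes, neutrophils and immature dendritic cells, was the most abundant of the falling receptors in the LPS groups. In PWD cells Ccr1 stood at 51.4, 51.3, 50.8 and 46.5 TPM with LPS, against 126, 131, 165 and 167 TPM untreated. In C57 cells Ccr1 stood at 159, 144, 175 and 159 TPM with LPS, against 234, 236, 221 and 206 TPM untreated. In B6 cells Ccr1 stood at 90.2, 95.0, 92.7 and 79.3 TPM with LPS, against 163, 187, 122 and 140 TPM untreated. Every LPS library lay below the untreated libraries of its strain, with the widest gap in PWD. The log2 differences for Ccr1 were -1.53 ± 0.110 in PWD (SE; adjusted p = 6.91e-12), -0.49 in C57 (adjusted p = 0.000418) and -0.76 in B6 (adjusted p = 9.90e-07). The fall in C57 cells was close to the median of all genes, and with median-of-ratios factors the Ccr1 difference there was -0.13 (adjusted p = 0.193), no longer called; the B6 difference was -0.20 (adjusted p = 0.0322).

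Cxcr2, the neutrophil receptor for Cxcl1, Cxcl2, Cxcl3, Cxcl5 and Ppbp, and Cxcr4, the receptor for Cxcl12 that retains cells in the marrow, fell in each strain. Cxcr2 in PWD cells stood at 6.74, 6.58, 7.01 and 6.46 TPM with LPS, against 21.4, 22.6, 29.3 and 28.3 TPM untreated. Cxcr2 in C57 cells stood at 4.52, 3.71, 6.75 and 6.82 TPM with LPS, against a lowest value of 10.1, a median of 13.2 and a highest value of 14.0 TPM untreated. Cxcr2 in B6 cells stood at 0.965, 0.828, 0.687 and 0.565 TPM with LPS, against 7.72, 6.91, 5.43 and 6.18 TPM untreated. LPS and untreated libraries did not overlap in any strain, and every B6 LPS library was under 1 TPM. The log2 differences for Cxcr2 were -1.77 ± 0.145 in PWD (SE; adjusted p = 8.46e-11), -1.11 in C57 (adjusted p = 4.55e-07) and -2.10 in B6 (adjusted p = 1.75e-12).

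Cxcr4 showed the same order of groups within each strain. In PWD cells Cxcr4 stood at 18.2, 18.6, 19.5 and 19.9 TPM with LPS, against 51.7, 52.4, 72.5 and 75.7 TPM untreated. In C57 cells Cxcr4 stood at 32.8, 29.8, 37.0 and 36.3 TPM with LPS, against 67.2, 75.8, 64.1 and 63.7 TPM untreated. In B6 cells Cxcr4 stood at 8.06, 9.63, 8.45 and 9.15 TPM with LPS, against 32.6, 39.7, 25.2 and 30.8 TPM untreated. No LPS library reached an untreated library of its strain. The LPS mean of Cxcr4 was 0.302 of the untreated mean in PWD, 0.502 in C57 and 0.275 in B6. The log2 differences for Cxcr4 were -1.65 ± 0.123 in PWD (SE; adjusted p = 1.29e-11), -0.98 in C57 (adjusted p = 2.50e-07) and -1.74 in B6 (adjusted p = 2.74e-12).

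Ccr3, the eotaxin receptor of eosinophils and basophils, was not called in any strain. In PWD cells Ccr3 stood at 3.45, 4.30, 6.06 and 5.79 TPM with LPS, against 4.25, 4.94, 9.77 and 10.8 TPM untreated. The groups overlapped: mice 3 and 4 were higher than mice 1 and 2 in both treatments, and the untreated library was the higher of the pair in all 4 mice. The PWD difference was -0.45 ± 0.248 (SE; adjusted p = 0.116), and with the mouse as a block it was called at the same size (adjusted p = 0.00444), as it was without untreated PWD library 1 (-0.65, adjusted p = 0.0244). Over the C57 and B6 libraries Ccr3 stayed between 0.165 and 1.72 TPM, and the LPS differences were -0.13 in C57 (adjusted p = 0.659) and -0.10 in B6 (adjusted p = 0.745).

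Cx3cr1, the fractalkine receptor of patrolling monocytes and resident macrophages, and Ackr3, an atypical receptor that scavenges Cxcl12, were near the lower limit of the table. Cx3cr1 averaged 0.399 ± 0.0856 TPM with LPS and 1.25 ± 0.320 TPM untreated in B6 cells (SD, n = 4 each), with no overlap; the difference was -0.68 (adjusted p = 7.41e-06). In PWD cells Cx3cr1 averaged 0.199 ± 0.0419 TPM with LPS and 0.153 ± 0.0646 TPM untreated, and in C57 cells 0.463 ± 0.130 TPM with LPS and 0.539 ± 0.180 TPM untreated. Those pairs overlapped and were not called. Ackr3 averaged 0.134 ± 0.0675 TPM with LPS and 0.357 ± 0.135 TPM untreated in PWD cells, a difference of -0.26 (adjusted p = 0.00126). In C57 and B6 cells no library held more than 0.158 TPM of Ackr3, 6 libraries listed it at 0, and no LPS difference was called.

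**Figure D2:**
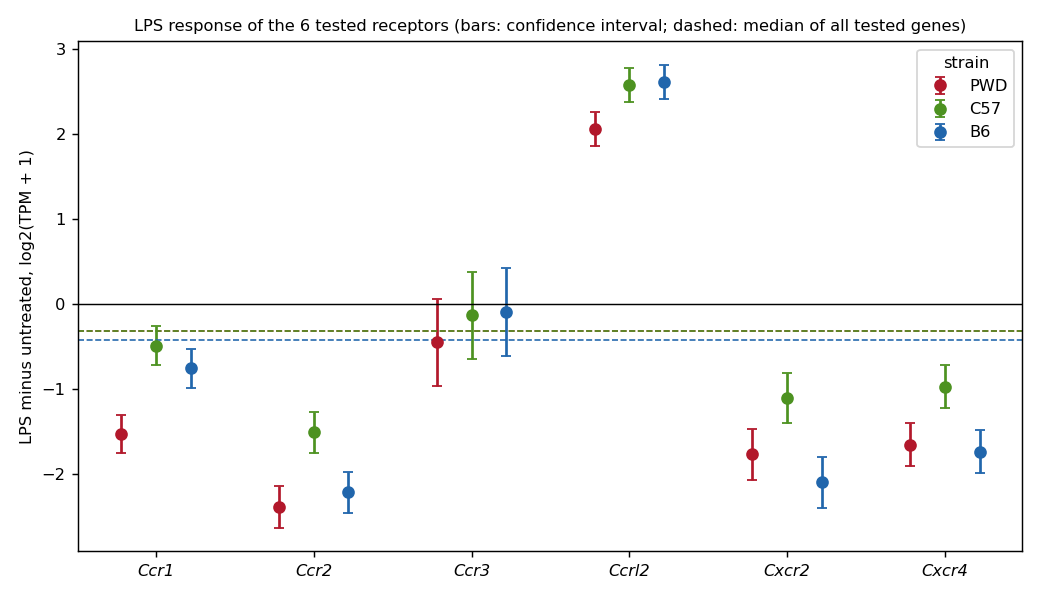
LPS minus untreated difference on the log2(TPM + 1) scale (vertical axis) for the 6 tested receptors, with 95% intervals, in PWD, C57 and B6 cells; dashed lines are the medians of all 13246 genes, -0.32, -0.32 and -0.43. Ccrl2 lies at 2.06 to 2.61 and Ccr2 at -2.39 to -1.51, while the Ccr3 intervals include 0.

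The mix of receptors was also described as shares of the summed TPM of the 8. The sum averaged 314 ± 21.9 TPM with LPS and 365 ± 60.9 TPM untreated in PWD cells, 459 ± 30.5 TPM with LPS and 538 ± 28.4 TPM untreated in C57 cells, and 267 ± 16.4 TPM with LPS and 403 ± 57.6 TPM untreated in B6 cells (SD, n = 4 each). Ccrl2 made up 70.2% ± 1.55 of the sum with LPS and 14.4% ± 0.692 untreated in PWD cells. In C57 cells the Ccrl2 share was 41.3% ± 1.24 with LPS and 5.80% ± 0.658 untreated. In B6 cells the Ccrl2 share was 47.9% ± 2.60 with LPS and 5.09% ± 0.957 untreated. In each strain the LPS and untreated shares of Ccrl2 did not overlap, and an exact two-sided permutation test of 4 against 4 libraries gave its smallest possible p of 0.0286 (0.0388 adjusted over the 72 share tests). Ccr2 went the other way: its share was 3.89% with LPS and 18.8% untreated in PWD, 15.2% with LPS and 37.3% untreated in C57, and 14.9% with LPS and 47.0% untreated in B6, with the same exact p in each. The Ccr1 share was 16.0% with LPS and 40.5% untreated in PWD cells, and 34.7% with LPS and 41.7% untreated in C57 cells (exact permutation p = 0.0286 in both, n = 4 each). In B6 cells it was 33.4% with LPS and 37.9% untreated and overlapped (exact permutation p = 0.0857), a test that leaves out the pairing. Taken by mouse, the Ccr1 share was lower with LPS in 4 of 4 B6 mice, with LPS minus untreated at -5.59 to -3.37 percentage points. The shares of a library have a fixed total, so a larger Ccrl2 share lowers the shares of the other receptors. The share results of Ccr1 and Ccr2 are therefore not separate from that of Ccrl2.

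**Figure D3:**
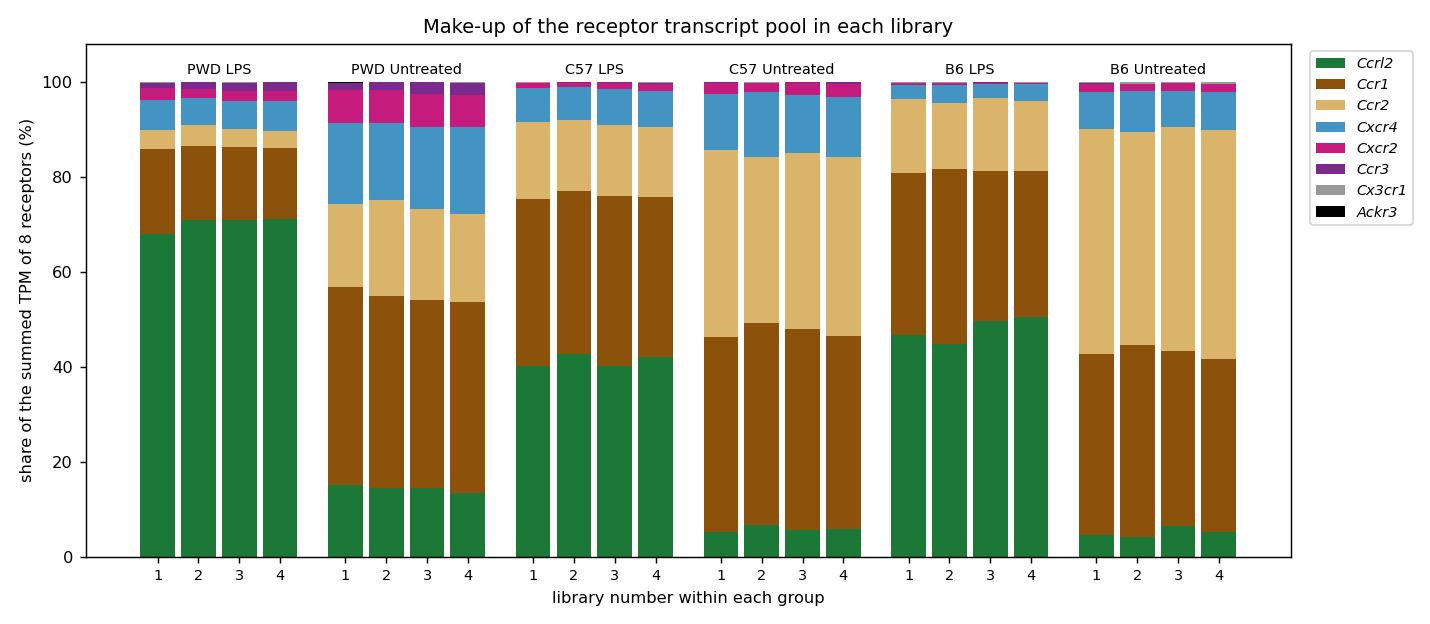
Share of each receptor in the summed TPM of the 8 (vertical axis, %), one bar per library, numbered within each group, LPS groups left of untreated ones. Ccrl2 takes 67.9% to 71.1% of the sum in PWD LPS libraries, against 13.5% to 15.1% in untreated PWD libraries.

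The strains differed at rest. Untreated PWD cells had more Ccr3, Ccrl2, Cxcr2 and Cxcr4 and less Ccr2 than untreated B6 cells, 4 receptors higher and 1 lower of 6 (37.2% and 19.7% of all genes). Ccr3, which passed the filter through PWD, is among those counted higher in PWD here and below, and its part in these counts is not a test. Untreated C57 cells had more Ccr1, Ccrl2, Cxcr2 and Cxcr4 than B6 cells, 4 higher and 0 lower; 31.9% of all genes were higher and 6.92% lower. Between untreated PWD and C57 cells, 3 receptors were higher in PWD and 2 lower (20.1% and 26.2% of all genes). The median gene differed by 0.14 between untreated PWD and B6 cells and by 0.17 between untreated C57 and B6 cells. With median-of-ratios factors the share of called genes that were higher was 51.1% for PWD minus B6 (65.3% as deposited) and 50.8% for C57 minus B6 (82.2% as deposited), and the receptors' calls stood but for a gained one of Ccr1 given below.

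Ccr3 separated PWD from the other strains; since its PWD libraries let it pass the filter, these differences are given as values with no test. Its mean was 7.44 ± 3.32 TPM in untreated PWD cells, 0.706 ± 0.686 TPM in untreated C57 cells and 0.352 ± 0.135 TPM in untreated B6 cells (SD, n = 4 each). After LPS the Ccr3 means were 4.90 ± 1.24 TPM in PWD, 0.512 ± 0.415 TPM in C57 and 0.261 ± 0.0779 TPM in B6. All 8 PWD libraries were above all 16 others. PWD minus B6 was 2.56 untreated and 2.21 with LPS, and PWD minus C57 was 2.29 untreated and 1.98 with LPS. Untreated PWD minus B6 was 2.06 in libraries 1 and 2 and 3.06 in libraries 3 and 4. C57 and B6 cells overlapped, and the interval of their untreated difference was -0.25 to 0.78.

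Markers of eosinophils moved with Ccr3 between strains. The 8 markers, none at 0 in all libraries of a group, summed to 878 TPM with LPS and 1250 TPM untreated in PWD cells (range 731 to 1415 over the 8 libraries), to 299 TPM with LPS and 455 TPM untreated in C57 cells (247 to 539) and to 122 TPM with LPS and 170 TPM untreated in B6 cells (54.9 to 226). Most of the sum was Ear2, an eosinophil ribonuclease, at 551 TPM with LPS and 874 TPM untreated in PWD cells. Il5ra, the interleukin-5 receptor, did not pass the filter and averaged 0.280 TPM with LPS and 0.149 TPM untreated in PWD cells, against 0.286 TPM with LPS and 0.302 TPM untreated in C57 cells. Within untreated PWD cells Siglecf, an eosinophil surface lectin, ranked mice 1 to 4 as Ccr3 did, at 22.9, 27.1, 39.1 and 39.7 TPM. Ear6, a related ribonuclease, did so too, at 52.2, 52.5, 72.9 and 104 TPM, whereas the sum was lowest in mouse 3 at 1095 TPM. Epx, eosinophil peroxidase, averaged 24.3 TPM with LPS and 26.6 TPM untreated in PWD cells and at most 0.565 TPM in the C57 and B6 groups, so that it passed the filter through PWD alone. Prg2, the major basic protein of eosinophil granules, averaged 120 TPM with LPS and 130 TPM untreated in PWD cells and at most 4.08 TPM elsewhere. Within untreated PWD cells Prg2 did not rank the mice as Ccr3 did, at 166, 141, 74.3 and 137 TPM in mice 1 to 4. Epx, Prg3, Ear2 and Il5ra were also lowest in mouse 3 there, and Ear1 stood at 107, 91.2, 93.8 and 146 TPM. In C57 cells the Ccr3 value of mouse 4, 1.13 TPM with LPS and 1.72 TPM untreated, stood above mice 1 to 3 at 0.192 to 0.468 TPM. Mouse 4 also had the highest Prg2 of the C57 mice (7.76 TPM with LPS and 6.96 TPM untreated), and Mcpt8, a basophil protease, stood at 6.82 TPM with LPS and 7.96 TPM untreated, against 6.89 TPM with LPS and 6.04 TPM untreated in mouse 3. In C57 cells Epx and Il5ra were also highest in mouse 4 in both treatments, and Prg3, Siglecf and Ear6 untreated alone. Ear1 with LPS and Ear2 untreated were lowest in mouse 4, at 4.01 and 366 TPM. The eosinophil sum of mouse 4 was 287 TPM with LPS and 418 TPM untreated, below the highest C57 values of 348 and 539 TPM. Basophil and mast cell markers as a list summed to 9.87 TPM with LPS and 9.27 TPM untreated in PWD cells, to 47.5 TPM with LPS and 22.9 TPM untreated in C57 cells and to 93.9 TPM with LPS and 14.9 TPM untreated in B6 cells. Over single libraries this sum was 7.29 to 12.5 TPM in PWD; its lowest LPS value was 36.2 TPM in C57 and 89.1 TPM in B6, against untreated ranges of 14.1 to 32.5 TPM in C57 and 13.3 to 17.5 TPM in B6. Most of the B6 LPS sum was Hdc, histidine decarboxylase, at 86.1 TPM, while the mast cell protease Mcpt4 was listed at 0 in every library. The part of eosinophils or basophils in the Ccr3 values was not tested.

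Cxcr2 followed PWD, C57, B6 in falling order when untreated, with means of 25.4 ± 3.95, 12.6 ± 1.72 and 6.56 ± 0.985 TPM and no overlap between neighbours (SD, n = 4 each). The difference was 1.80 ± 0.145 for PWD minus B6 (SE; adjusted p = 2.57e-11), 0.85 for C57 minus B6 (adjusted p = 4.17e-05) and 0.95 for PWD minus C57 (adjusted p = 3.77e-06). After LPS the Cxcr2 means were 6.70 ± 0.240 TPM in PWD, 5.45 ± 1.58 TPM in C57 and 0.761 ± 0.173 TPM in B6. PWD and C57 then overlapped, with a difference of 0.29 (adjusted p = 0.0954, interval -0.0090 to 0.59), called with median-of-ratios factors (adjusted p = 0.00595). In libraries 1 and 2 alone it was 0.59 (adjusted p = 0.00504) and in libraries 3 and 4 alone -0.010 (adjusted p = 0.956). It was also called without C57 LPS library 3 (0.39, adjusted p = 0.0339) or 4 (0.39, adjusted p = 0.0314). Both strains stayed above B6, by 2.13 in PWD (adjusted p = 6.39e-13) and 1.84 in C57 (adjusted p = 6.72e-11).

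The 12 neutrophil markers, none at 0 in all libraries of a group, summed to 1083 TPM with LPS and 2481 TPM untreated in PWD cells, to 2420 TPM with LPS and 3639 TPM untreated in C57 cells and to 1383 TPM with LPS and 2018 TPM untreated in B6 cells. At rest C57 had the highest sum, of which the calprotectin subunit S100a8 held 1719 TPM, against 347 TPM in PWD and 920 TPM in B6. S100a9, Retnlg, Ly6g, Csf3r and Camp had the order of Cxcr2 at rest, PWD above C57 above B6. The other subunit S100a9 averaged 1780, 1278 and 718 TPM in those strains, and Retnlg 47.7, 29.6 and 11.9 TPM. Ly6g, a neutrophil surface marker, averaged 14.6, 10.6 and 4.99 TPM in the same order. Mmp8, Mmp9, Ngp, Ltf, Elane and Mpo did not have that order and were highest in untreated C57 cells, as S100a8 was. Untreated Mmp8 averaged 123, 400 and 276 TPM and Ngp 23.3, 80.5 and 34.2 TPM in PWD, C57 and B6. With LPS 8 of the 12 were called lower in PWD, 6 in C57 and 6 in B6, where 2 were higher; these counts are set against the 52.4%, 52.2% and 59.7% of all genes called lower. With median-of-ratios factors 6 were lower and 1 higher in PWD, 3 lower and 0 higher in C57, and 2 lower and 3 higher in B6. In B6 cells the neutrophil collagenase Mmp8 averaged 148 TPM with LPS and 276 TPM untreated, Mmp9 15.5 TPM with LPS and 33.9 TPM untreated, and Retnlg 7.37 TPM with LPS and 11.9 TPM untreated. Csf3r, the G-CSF receptor of neutrophils, averaged 16.8 TPM with LPS and 9.26 TPM untreated there, and Ly6g 5.06 TPM with LPS and 4.99 TPM untreated. The part of neutrophil number in the Cxcr2 values was not tested.

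**Figure D4:**
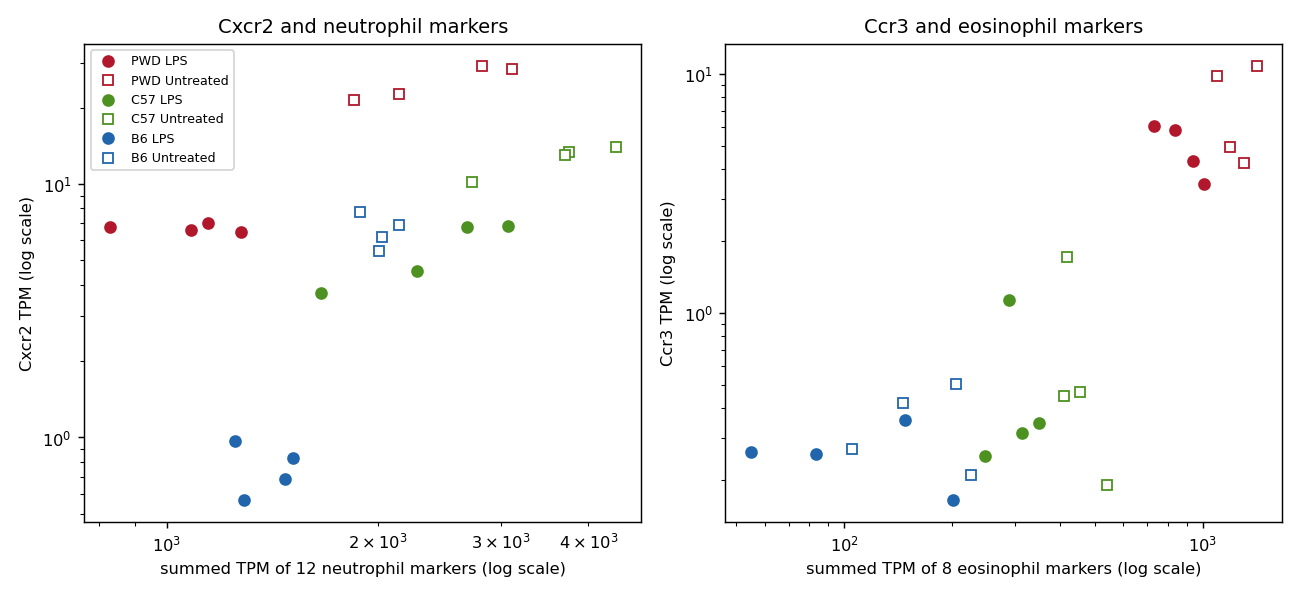
Cxcr2 against the summed TPM of 12 neutrophil markers (left) and Ccr3 against that of 8 eosinophil markers (right), both axes logarithmic, one point per library, filled for LPS and open for untreated. B6 LPS libraries hold Cxcr2 at 0.565 to 0.965 TPM with neutrophil sums of 1253 to 1513 TPM, PWD LPS libraries hold it at 6.46 to 7.01 TPM with sums of 829 to 1276 TPM, and the 8 PWD libraries lie highest in both values of the Ccr3 plot.

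Cxcr4 averaged 63.1 ± 12.8 TPM in untreated PWD and 67.7 ± 5.64 TPM in untreated C57 cells, which overlapped, and was lower in untreated B6 cells at 32.1 ± 5.98 TPM (SD, n = 4 each). PWD minus C57 was -0.12 (adjusted p = 0.456, interval -0.37 to 0.13), but -0.45 in libraries 1 and 2 alone (adjusted p = 0.00827) and 0.21 in libraries 3 and 4 alone (adjusted p = 0.121). The difference from B6 was 0.95 ± 0.123 for PWD (SE; adjusted p = 2.14e-07) and 1.07 for C57 (adjusted p = 1.52e-07). The PWD difference from B6 was 0.52 (adjusted p = 0.00331) in libraries 1 and 2 and 1.38 (adjusted p = 1.63e-07) in libraries 3 and 4. After LPS all 3 strains were apart, with Cxcr4 means of 19.1 ± 0.768 TPM in PWD, 34.0 ± 3.34 TPM in C57 and 8.82 ± 0.702 TPM in B6. PWD minus C57 was then -0.80 (adjusted p = 3.72e-06), and C57 minus B6 was 1.83 (adjusted p = 4.20e-12).

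Ccr2 was lowest in PWD cells in both treatments. Its untreated means were 68.8 ± 12.7 TPM in PWD, 201 ± 15.5 TPM in C57 and 189 ± 23.8 TPM in B6 (SD, n = 4 each). PWD minus B6 was -1.45 ± 0.118 (SE; adjusted p = 3.25e-11), at -1.80 in libraries 1 and 2 and -1.10 in libraries 3 and 4, whereas C57 and B6 overlapped at a difference of 0.09 (adjusted p = 0.562, interval -0.15 to 0.34). After LPS the Ccr2 means were 12.2 ± 1.64 TPM in PWD, 69.8 ± 5.11 TPM in C57 and 39.8 ± 3.97 TPM in B6, with no overlap. PWD minus B6 was -1.63 (adjusted p = 2.52e-12), C57 minus B6 was 0.80 (adjusted p = 2.34e-06) and PWD minus C57 was -2.43 (adjusted p = 6.80e-16). The 7 monocyte markers, none at 0 in all libraries of a group, summed to 495 TPM with LPS and 533 TPM untreated in PWD, 914 TPM with LPS and 876 TPM untreated in C57 and 979 TPM with LPS and 816 TPM untreated in B6 cells (441 to 1079 over all libraries), and macrophage markers to 651 TPM with LPS and 735 TPM untreated in PWD, 918 TPM with LPS and 1185 TPM untreated in C57 and 1072 TPM with LPS and 1746 TPM untreated in B6 cells (631 to 1967). Of 8 macrophage markers 7 were called lower in untreated PWD than in untreated B6 and C57 cells, beside 19.7% and 26.2% of all genes. Migratory dendritic cell markers, among them Ccr7, summed to 5785 TPM with LPS and 3162 TPM untreated in PWD, 4175 TPM with LPS and 2138 TPM untreated in C57 and 15033 TPM with LPS and 5333 TPM untreated in B6 cells (1777 to 16317). All 7 migratory markers were called lower in untreated PWD than in untreated B6 cells, beside the same 19.7% of all genes. The part of these cells in the Ccr1 and Ccr2 values was not tested.

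Ccr1 was highest in C57 cells. Untreated C57 cells averaged 224 ± 13.9 TPM, against 153 ± 28.3 TPM in untreated B6 cells, a difference of 0.56 ± 0.110 (SE; adjusted p = 0.000223). Untreated PWD cells averaged 147 ± 21.9 TPM, 0.61 below C57 on the log2 scale (-0.61, adjusted p = 3.90e-05), with -0.87 in libraries 1 and 2 and -0.36 in libraries 3 and 4, both called. The PWD minus B6 difference in untreated Ccr1 was -0.05 (adjusted p = 0.711, interval -0.28 to 0.17) and joined opposite values: it was -0.44 (adjusted p = 0.00139) in libraries 1 and 2 and 0.34 (adjusted p = 0.0112) in libraries 3 and 4. With median-of-ratios factors it was called, at -0.21 (adjusted p = 0.0249). After LPS Ccr1 was 46.5 to 51.4 TPM in the PWD libraries, 144 to 175 TPM in C57 and 79.3 to 95.0 TPM in B6. The PWD minus B6 difference was then -0.82 (adjusted p = 2.67e-07), and C57 minus B6 was 0.83 (adjusted p = 4.87e-07).

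Ccrl2 was highest in PWD cells at rest, at 52.4 ± 7.23 TPM, against 31.2 ± 3.91 TPM in C57 and 20.1 ± 0.782 TPM in B6 cells (SD, n = 4 each), with no overlap. At rest PWD minus B6 was 1.33 ± 0.0979 (SE; adjusted p = 4.12e-12), PWD minus C57 was 0.73 (adjusted p = 5.31e-07; 0.48 in libraries 1 and 2 and 0.97 in libraries 3 and 4, both called) and C57 minus B6 was 0.60 (adjusted p = 2.25e-05). After LPS its means were 221 ± 19.5 TPM in PWD, 189 ± 10.3 TPM in C57 and 128 ± 12.4 TPM in B6. PWD and C57 overlapped, with a difference of 0.22 (adjusted p = 0.0616), which was called with median-of-ratios factors (0.29, adjusted p = 0.00426), with quantile normalization (0.37, adjusted p = 0.000421), with the replicate number as a block (adjusted p = 0.0472) and without PWD LPS library 1 (0.28, adjusted p = 0.0259). PWD minus B6 was 0.78 (adjusted p = 9.19e-08). C57 minus B6 was 0.56 (adjusted p = 2.25e-05), but 0.16 with median-of-ratios factors (adjusted p = 0.116).

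After LPS the 6 tested receptors gave 4 higher and 2 lower in PWD against B6 cells, 5 higher and 0 lower in C57 against B6 cells, and 1 higher and 3 lower in PWD against C57 cells. The 1 higher in PWD than in C57 cells was Ccr3, which passed the filter through PWD, so that count is not a test. Among all genes 49.7% were higher and 19.0% lower in PWD than in B6 LPS cells. The shares were 49.1% and 9.69% for C57 against B6 LPS cells and 24.4% and 29.8% for PWD against C57 LPS cells. With median-of-ratios factors the share of called genes that were higher was 51.1% for PWD minus B6 with LPS (72.4% as deposited) and 48.1% for C57 minus B6 with LPS (83.5% as deposited). The receptor counts were then 4 higher and 2 lower for PWD minus B6, 4 and 0 for C57 minus B6, and 3 and 3 for PWD minus C57. Of the untested receptors, Cx3cr1 was called lower in untreated PWD cells than in untreated B6 cells, at -0.95 (adjusted p = 6.79e-08), and lower in untreated C57 than in untreated B6 cells, at -0.54 (adjusted p = 0.000363). Ackr3 was called higher in untreated PWD cells than in C57 cells, at 0.34 (adjusted p = 7.32e-05), and than in B6 cells, at 0.40 (adjusted p = 7.77e-06).

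The size of the LPS response itself was compared between strains as the difference of the 2 LPS differences. The PWD and B6 responses differed for 2 of 6 receptors (23.5% of all genes), the C57 and B6 responses for 3 (14.3%) and the PWD and C57 responses for 5 (11.4%). Of the called genes 68.0% and 76.3% had the higher response in PWD and C57 than in B6 cells, or 47.1% and 41.4% with median-of-ratios factors. These comparisons share the same libraries and are not independent of each other.

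Ccr1 fell further in PWD cells than in both other strains: the response differed by -0.77 ± 0.155 from B6 (SE; adjusted p = 0.00059) and by -1.04 from C57 (adjusted p = 3.13e-05), and C57 and B6 did not differ detectably (0.27, adjusted p = 0.276, interval -0.053 to 0.59). Ccr2, Cxcr2 and Cxcr4 fell less in C57 cells than in B6 cells. Their response differences, C57 minus B6, were 0.70 ± 0.167 for Ccr2 (adjusted p = 0.00484), 0.99 ± 0.205 for Cxcr2 (adjusted p = 0.0015) and 0.76 ± 0.174 for Cxcr4 (adjusted p = 0.00353). Ccr2 and Cxcr4 also fell further in PWD than in C57 cells, by -0.88 (adjusted p = 0.000596) and -0.68 (adjusted p = 0.00936). Ccrl2 rose less in PWD cells than in B6 cells (-0.55 ± 0.139, adjusted p = 0.00442) and than in C57 cells (-0.51, adjusted p = 0.0149), from a higher untreated level.

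The Cxcr2 response differed between PWD and C57 at -0.66 (adjusted p = 0.0341), a call lost with a pseudocount of 0.1 TPM (adjusted p = 0.106) and on leaving out PWD LPS library 1, 2 or 4, untreated PWD library 3 or 4, C57 LPS library 3 or 4 or untreated C57 library 2, for which the adjusted p was 0.0512 to 0.0858. The call was also lost with no filter (adjusted p = 0.0731) and in a fit of only the groups compared (adjusted p = 0.0511). With a pseudocount of 0.1 TPM the Cxcr2 response of PWD minus B6 was 1.07 and was called (adjusted p = 0.00271), against 0.33 (adjusted p = 0.262) with 1 TPM. It was also called with structural RNA left out of the TPM (0.62, adjusted p = 0.00533). The Ccr2 response of PWD minus B6, -0.17 (adjusted p = 0.492), was called with median-of-ratios factors (-0.36, adjusted p = 0.0156). It turned sign between libraries 1 and 2 (0.28, adjusted p = 0.304) and libraries 3 and 4 (-0.62, adjusted p = 0.0191). The Ccr1 response of PWD minus B6 was called in both, at -0.39 and -1.15. The Ccrl2 response of PWD minus B6 was not called in libraries 1 and 2 (-0.37, adjusted p = 0.106) and was called in libraries 3 and 4 (-0.73, adjusted p = 0.00181). That of Cxcr4 was called in neither, at 0.47 and -0.30. Some calls for the PWD minus C57 response differed between the pairs of library numbers, and the difference between the pairs was not tested. In libraries 1 and 2 alone the PWD minus C57 response differences were -0.52 for Ccr2 (adjusted p = 0.0973), -0.25 for Ccrl2 (adjusted p = 0.303), -0.27 for Cxcr2 (adjusted p = 0.348) and -0.28 for Cxcr4 (adjusted p = 0.244). In libraries 3 and 4 alone they were -1.24, -0.77, -1.05 and -1.07, all called. Ccr1 was called in both, at -0.67 (adjusted p = 0.00545) and -1.40 (adjusted p = 9.15e-05). The higher untreated PWD libraries 3 and 4 are those with less structural RNA. C57 LPS libraries 3 and 4 also held less of it than numbers 1 and 2. The same split separates male from female material by Xist, so sex and structural RNA cannot be told apart within these groups. With structural RNA left out of the TPM, the PWD minus C57 response differences over all libraries were -1.03 for Ccr1, -0.89 for Ccr2, -0.50 for Ccrl2, -0.65 for Cxcr2 and -0.68 for Cxcr4, all called. That setting was not fitted within the pairs of library numbers, so it does not address the split. The part of structural RNA or of sex in the split was not tested. The LPS falls of Ccr1, Ccr2, Cxcr2 and Cxcr4 and the rise of Ccrl2 were called within each of these pairs of numbers in every strain.

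The ligands of these receptors were measured in the same libraries. Of 22 listed ligands 19 were tested, and with LPS 9 rose and 6 fell in PWD cells, 10 rose and 3 fell in C57 cells and 11 rose and 4 fell in B6 cells. Of all genes 11.1% rose and 52.4% fell in PWD, 10.4% and 52.2% in C57, and 11.9% and 59.7% in B6 cells. Cxcl11, one of the tested ligands, passed the filter through its LPS libraries. Its part in the ligand counts, here and with median-of-ratios factors, is not a test. The median of the 19 was 0.18 in PWD, 0.39 in C57 and 0.39 in B6, above the medians of all genes. With median-of-ratios factors the counts of rises and falls were 10 and 4, 14 and 1, and 12 and 2.

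Ligands of Cxcr2 rose while Cxcr2 fell. Cxcl1 averaged 277 TPM with LPS and 7.37 TPM untreated in PWD cells, 223 TPM with LPS and 9.54 TPM untreated in C57 cells and 256 TPM with LPS and 7.76 TPM untreated in B6 cells, the log2 differences being 5.06, 4.41 and 4.89 (adjusted p at most 3.18e-20). Cxcl2 rose by 2.71, 2.91 and 3.44, Cxcl3 by 2.32, 2.32 and 2.34, and Cxcl5 by 3.89, 3.28 and 2.83 in PWD, C57 and B6 cells in that order, all called. Ppbp, a ligand stored in platelets, fell in C57 (-0.68, adjusted p = 0.0131) and B6 cells (-1.53, adjusted p = 4.20e-06), and its PWD difference was -0.23 (adjusted p = 0.38). Pf4, another platelet chemokine, fell in B6 cells alone (-0.37, adjusted p = 0.00896). Mif, a cytokine that can engage Cxcr2 and Cxcr4, fell by 0.25, 0.32 and 0.43 in PWD, C57 and B6 cells. With median-of-ratios factors the B6 difference of Pf4 was 0.19 and those of Mif were 0.13, 0.05 and 0.13, all above 0.

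Among the Ccr1 ligands, Ccl3 averaged 2560 TPM with LPS and 384 TPM untreated in PWD cells and rose by 2.73 there, 2.48 in C57 and 2.52 in B6 cells. Ccl4, a related inflammatory chemokine, rose by 1.95, 1.94 and 1.70 in the same order. Ccl5 averaged 880 TPM with LPS and 6.57 TPM untreated in PWD cells, 719 TPM with LPS and 35.0 TPM untreated in C57 cells, and 4415 TPM with LPS and 204 TPM untreated in B6 cells. Its LPS difference was 6.88 in PWD, 4.36 in C57 and 4.44 in B6, and the PWD response exceeded that of B6 by 2.44 (adjusted p = 1.94e-07). Ccl6, the most abundant ligand in untreated cells, fell in each strain: it averaged 4488 TPM with LPS and 7221 TPM untreated in PWD cells, with differences of -0.68, -0.72 and -0.83. Ccl9 rose in PWD (0.29, adjusted p = 0.00881) and B6 cells (0.38, adjusted p = 0.00082), with -0.15 (adjusted p = 0.177) in C57.

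Ligands of Ccr2 separated the strains. Ccl2 averaged 156 ± 19.0 TPM with LPS and 404 ± 28.8 TPM untreated in PWD cells, 1331 ± 83.0 TPM with LPS and 1139 ± 59.8 TPM untreated in C57 cells and 416 ± 14.2 TPM with LPS and 317 ± 32.0 TPM untreated in B6 cells (SD, n = 4 each). It fell in PWD (-1.37, adjusted p = 4.64e-13) and rose in C57 (0.22, adjusted p = 0.0273) and B6 cells (0.39, adjusted p = 0.000235). The PWD response of Ccl2 differed from that of B6 by -1.77 (adjusted p = 4.24e-11). Ccl7 went the same way, at -0.83 in PWD, 0.39 in C57 and 0.67 in B6, all called. Ccl12 was not called in any strain and was under 0.45 TPM on average in both PWD groups, against 13.2 TPM with LPS and 13.7 TPM untreated in B6 cells. Ccl8 stayed under 1.7 TPM in the group means and was not called.

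Ligands of Ccr3, Cx3cr1 and the atypical receptors were less even. Ccl24, an eotaxin, averaged 21.0 ± 3.70 TPM with LPS and 62.6 ± 15.3 TPM untreated in PWD cells, and at most 4.78 TPM in the C57 and B6 groups. Its LPS difference was -1.51 in PWD (adjusted p = 3.73e-05), and PWD minus B6 was 3.48 untreated. Ccl11, the other eotaxin listed, was at most 0.118 TPM in any library and was not tested. Cx3cl1, the ligand of Cx3cr1, averaged 2.53 TPM with LPS and 4.68 TPM untreated in PWD cells (-0.62, adjusted p = 0.0192), while in B6 cells it averaged 23.1 TPM with LPS and 18.2 TPM untreated (0.32, adjusted p = 0.196). Cxcl11, which Ackr3 binds, rose to 1.91 TPM in PWD, 4.09 TPM in C57 and 11.3 TPM in B6 cells with LPS, against 0.0544, 0.292 and 0.718 TPM untreated. It reached 1 TPM in LPS libraries alone and passed the filter through them. Cxcl12 and Rarres2 (chemerin), ligands of Cxcr4 and Ccrl2, averaged at most 0.189 and 0.661 TPM in any group and were not tested.

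**Figure D5:**
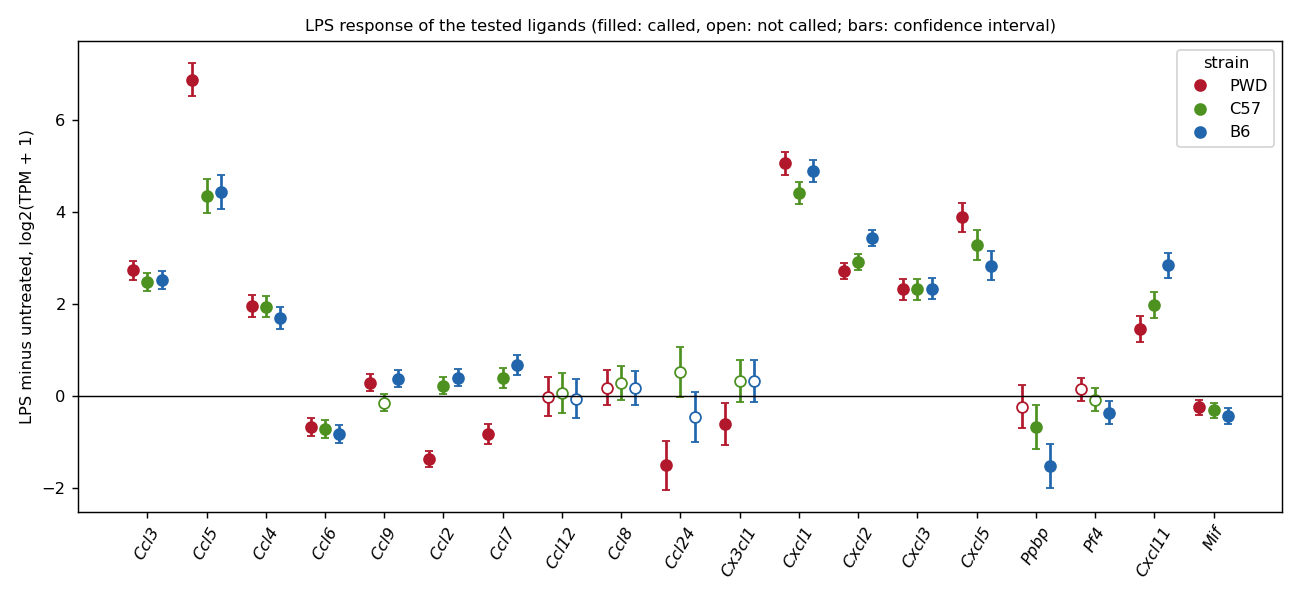
LPS minus untreated difference on the log2(TPM + 1) scale (vertical axis) for the 19 tested ligands, with 95% intervals, in PWD, C57 and B6 cells; filled points were called. Ccl2 and Ccl7 are lower with LPS in PWD cells (-1.37 and -0.83) and higher in C57 and B6 cells, and Ccl5 is highest in PWD at 6.88.

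Other chemoattractant receptors did not all follow the 5 receptors that changed. Of 14 tested, 5 rose and 7 fell in PWD, 6 rose and 5 fell in C57, and 6 rose and 6 fell in B6 cells with LPS. Of all genes 11.1%, 10.4% and 11.9% rose and 52.4%, 52.2% and 59.7% fell in those strains. Cxcr5, one of those tested, reached 1 TPM in C57 and B6 LPS libraries alone and passed the filter through them. Any part of Cxcr5 in these counts is not a test. Ltb4r1, the leukotriene B4 receptor, fell by 1.87, 1.41 and 2.40 in PWD, C57 and B6 cells, while Ccr7 rose by 2.19, 1.86 and 1.70 and the formyl peptide receptor Fpr1 by 1.23, 1.22 and 1.60. C5ar1, the C5a receptor, fell in B6 cells (-1.56, adjusted p = 3.71e-13), and its response in C57 differed from that in B6 by 1.24 (adjusted p = 1.87e-06). Of 32 tested genes of receptor signalling and desensitisation, 5 rose and 17 fell in PWD, 5 and 20 in C57, and 4 and 18 in B6, beside the 52.4%, 52.2% and 59.7% of all genes that fell. With median-of-ratios factors these counts were 12 and 12, 10 and 12, and 14 and 11. Plcb2, the phospholipase C beta that receptor G proteins activate, fell by 1.25, 1.53 and 2.10, and Grk6, a kinase that desensitises receptors, by 1.00, 1.29 and 1.60. Rgs1, which shortens G protein signals, rose by 1.23 in PWD and 1.82 in B6 cells, and its response in C57 was 1.62 lower than in B6 on the log2 scale (-1.62, adjusted p = 2.05e-06).

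The receptors' profiles over the 24 libraries fell into a few patterns, described by Pearson's r of log2 values, which share libraries and group means. Ccr1 and Ccr2 went together (r = 0.92, n = 24), as did Cxcr2 and Cxcr4 (r = 0.90), while Ccr2 and Ccrl2 were opposed (r = -0.84). Among 8287 named genes averaging at least 5 TPM, the closest to Ccrl2 were the interleukin-1 receptor antagonist Il1rn (r = 0.988), Clec4e (r = 0.986) and Il1b (r = 0.985). Closest to Ccr2 were Cd200r1 (r = 0.993), Aldh9a1 (r = 0.991) and Tifab (r = 0.988), and closest to Ccr1 were Tlr13 (r = 0.977), Pycard (r = 0.970) and Mrpl15 (r = 0.966). Ccr3 was nearest to Alox15 (r = 0.982), a lipoxygenase that eosinophils and some macrophages carry, then to Siglecg (r = 0.968) and Fut8 (r = 0.965). Cxcr2 was nearest to Nfe2 (r = 0.989), Adss (r = 0.988) and Cd151 (r = 0.987), and Cxcr4 to Lmnb1 (r = 0.983), Ncapg2 (r = 0.982) and Slc25a24 (r = 0.982).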

How the data were processed

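RNA-seq libraries were made from total RNA with a stranded kit, per the labels' protocols. The authors deposited 1 table of TPM values; STAR, edgeR and mm10 are named in the submitters' processing notes, without versions. TPM removes depth, so no counts were tested. The table holds 55401 rows; 110 lines with repeated symbols were summed, leaving 55291 symbols. TPM values were transformed as log2(TPM + 1), which understates changes of low genes, and fitted with limma 3.58.1 (R 4.3.3; trend and robust) as 6 group means over 24 libraries with 18 residual degrees of freedom, for genes at 1 TPM or more in at least 4 libraries. P-values were adjusted (Benjamini-Hochberg) over 13246 genes in each of 12 comparisons. Shares were compared by exact permutation.

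The study's text gives 4 individually cultured mice per genotype, and equal numbers within a strain were taken as the same mouse. Deviations of the 12 such pairs from their group means correlated at r = 0.0514 to 0.176, and in 10 pairs each library's best match was its own number; blocking by mouse was an alternative. The receptors and gene lists were chosen with earlier results of these data known. Named genes were the 8 receptors and all tested ligands. From each other list except those of cell type markers, up to 4 called genes per comparison were named. These had the largest changes at 10 TPM or more in the higher group. Genes named from the cell type marker lists were chosen after their values were seen. Promoter sequences are from RefSeq and gene models from GENCODE M21 on mm10. Alternatives tried are given in the closing section.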

Additional observations from a re-analysis of the deposited data

Results flagged for a closer look

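Single libraries stood apart from the other 3 of their group in 7 of 48 groups by Dixon's criterion, of which chance flags about 1 in 20. They were Ccr1 in PWD LPS library 4 (46.5 TPM, others 50.8 to 51.4), Ccr2 in untreated C57 library 1 (224 TPM, others 192 to 194), Ccr3 in C57 LPS library 4 (1.13 TPM, others 0.253 to 0.347), Ccrl2 in untreated C57 library 2 (37.0 TPM, others 29.1 to 29.5), Ccrl2 in untreated B6 library 3 (21.2 TPM, others 19.6 to 19.7), Cx3cr1 in untreated C57 library 2 (0.807 TPM, others 0.426 to 0.467) and Ackr3 in B6 LPS library 2 (0.0217 TPM, others at 0). With the other 3 at 0, any Ackr3 value above 0 would have been flagged, so that flag is not a test.

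LPS responses differed between strains, by a test of the difference itself, for 10 of 18 receptor and strain pairs. PWD minus B6 gave -0.77 for Ccr1 (adjusted p = 0.00059) and -0.55 for Ccrl2 (adjusted p = 0.00442). C57 minus B6 gave 0.70 for Ccr2 (adjusted p = 0.00484), 0.99 for Cxcr2 (adjusted p = 0.0015) and 0.76 for Cxcr4 (adjusted p = 0.00353). PWD minus C57 gave -1.04 for Ccr1 (adjusted p = 3.13e-05), -0.88 for Ccr2 (adjusted p = 0.000596), -0.51 for Ccrl2 (adjusted p = 0.0149), -0.66 for Cxcr2 (adjusted p = 0.0341) and -0.68 for Cxcr4 (adjusted p = 0.00936). No explanation was tested.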

How the results depend on the processing

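The depth of the libraries is unknown, so no counting limit can be set for Cx3cr1 and Ackr3. Of the single-receptor results from settings other than leaving out a library, 879 kept their side of the threshold. A change of sign between values that were both not called is counted among these. The Cxcr4 response of PWD minus B6, for example, was 0.084 as deposited and -0.063 with median-of-ratios factors. Of the rest, 35 lost and 21 gained a call, and 1 took the opposite sign with a call: untreated Ccr1, PWD minus B6, was 0.34 in libraries 3 and 4 alone. Requiring an absolute log2 difference of 1 left 3 receptors for LPS in C57 (5 without it), 1 for untreated C57 minus B6 (4), 2 for untreated PWD minus C57 (5), 2 for C57 minus B6 with LPS (5), and 0, 0 and 1 for the responses of PWD minus B6 (2), C57 minus B6 (3) and PWD minus C57 (5). Without structural RNA 7 receptors were called for PWD minus C57 with LPS (4 as deposited; Cx3cr1 then passed the filter), 4 for the PWD minus B6 response and 5 for the C57 minus B6 response. In libraries 1 and 2 alone 1 receptor was called for the PWD minus B6 response and 1 for the PWD minus C57 response. The term for libraries 1 and 2 against 3 and 4 was chosen after seeing the data; with it Ccr3 was called for LPS in PWD (adjusted p = 0.0445).

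With the replicate block, the Ccr3 LPS difference in PWD (-0.45, adjusted p = 0.00444) and the Ccrl2 difference of PWD minus C57 with LPS (0.22, adjusted p = 0.0472) gained a call and no other receptor call changed. Leaving out 1 library gave 5 to 6 receptors for LPS in PWD, 4 to 5 for PWD minus C57 with LPS and 4 to 5 for the PWD minus C57 response, and no change in count elsewhere; Ccr3 for LPS in PWD was called without untreated PWD library 1 (-0.65, adjusted p = 0.0244). Over all genes, an absolute log2 difference of 1 left 1376, 1075 and 2478 genes for LPS in PWD, C57 and B6, 2223, 504 and 1797 for untreated PWD minus B6, C57 minus B6 and PWD minus C57, 2893, 1197 and 1930 for the same pairs with LPS, and 617, 229 and 346 for their responses. As deposited these counts were 8410, 8279, 9480, 7544, 5135, 6126, 9091, 7783, 7179, 3111, 1896 and 1510. In libraries 1 and 2 alone they were 5600 for LPS in PWD, 3393 for untreated C57 minus B6, and 725 and 2378 for the C57 minus B6 and PWD minus C57 responses. Without structural RNA the responses gave 5747, 4376 and 2780 genes. Median-of-ratios factors gave 3380 for the C57 minus B6 and 2861 for the PWD minus C57 response, and quantile normalization 2966 for that of PWD minus C57.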
